A study of Homo sapiens with 6 samples.

Results

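Proteoglycans are proteins that carry long sulfated sugar chains, the glycosaminoglycans, and hyaluronan is a glycosaminoglycan that is made without a core protein. The genes described here were a fixed list of 41 symbols for core proteins, hyaluronan genes and enzymes of the chains. Each symbol was taken at its entry on a primary chromosome, out of 41497 named entries in the deposited tables. The list was divided into 4 syndecans, 6 glypicans, 4 lecticans, 7 small leucine-rich proteoglycans, 4 other core proteins, 9 hyaluronan genes and 7 enzymes that build chains or edit their sulfate groups.

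A chain of heparan sulfate or of chondroitin and dermatan sulfate starts with xylose on a serine of the core protein. It is lengthened in the Golgi and is then sulfated. The pattern of sulfate groups decides which growth factors, chemokines and matrix proteins a chain can hold. Hyaluronan is spun out by synthases in the plasma membrane, bound by CD44 and by proteins such as the product of TNFAIP6, and cut by hyaluronidases. In the kidney, heparan sulfate proteoglycans are part of the tubular basement membrane, and hyaluronan is sparse in healthy cortex and gathers in the interstitium after injury.

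HK-2 cells, derived from the epithelium of the human proximal tubule, immortalised and of wild-type genotype, were left untreated or exposed to TGF-β1 for 24 h, and RNA was sequenced from 3 libraries in each group. All 6 libraries came from this one line, and their sample labels give no dose. According to the methods of the study, exposure to TGF-β was done without serum, whereas serum in the medium of the untreated cells was not described, so the cytokine and the medium cannot be told apart. Nothing in the sources says that the 3 libraries of a group came from separate cultures, so the p-values measure only the spread between these samples.

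The libraries held 21938622 to 26906067 counts. The treatment check held, with SMAD7, a target gene of TGF-β signalling, at a log2 fold change of 1.64. On principal components of all genes the second component (9.94% of the variance) set TGF-β1 replicate 1 apart from the other 2 libraries of its group, and values of the called genes, VCAN and HYAL2 that depended on it are given with and without it. Of the epithelial and tubular markers, KRT8, KRT18, PAX8 and CDH2 were expressed in every library, while LRP2 had no read and CDH1 and ANPEP had at most 6 reads per group. The summed level of 10 fibroblast and pericyte markers was 17.5 to 19.2 TPM (the share of a gene in its library, corrected for gene length) in control and 124 to 132 TPM after TGF-β1, most of it from COL1A1, while COL1A2, PDGFRA and POSTN had at most 4 reads per group. The markers of this list did not move together. Of the 6 tested, 3 rose and 3 fell, at log2 fold changes from -1.72 to 3.38. The sum of 8 leukocyte markers was 193 to 206 TPM in control and 130.0 to 167 TPM after TGF-β1, most of it from CD68, while PTPRC had 2 reads in each group and CD3E and TYROBP had 0. Of the 3 leukocyte markers tested, 1 rose and 2 fell. The sum of 8 endothelial markers was 0.863 to 1.53 TPM and 0.107 to 0.244 TPM, and that of 4 podocyte markers was 16.7 to 17.7 TPM and 9.41 to 9.93 TPM with WT1 at 0 reads. Of the 48 markers in these lists and the epithelial one, 24 were tested, of which 9 rose and 14 fell. The 14 include the 1 endothelial marker tested, at a log2 fold change of -7.39. All 8 endothelial markers together lay under the level of the count filter in each treated library. That marker was therefore tested through the control libraries alone, and it is counted in the shares that follow. By the threshold given below, 95.8% of the 24 were called, against 44.3% of all genes tested. At least 2-fold changes were called for 54.2% of the 24, against 9.06% of all genes. The part of these markers in the results below was not tested.

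The groups were compared over 14860 genes with the edgeR quasi-likelihood test, and a gene was called at an adjusted p under 0.05. Of the 41 genes, 25 passed the filter on low counts, and 14 of the 25 were called. Over all genes tested 44.3% were called, so the share of 56.0% is to be read against a large background. SDC1, GPC6, BGN, TNFAIP6, CHST3 and CHST11 were higher, against 22.2% of all genes, and SDC2, SDC3, SDC4, LUM, HSPG2, AGRN, HAS3 and CD44 were lower, against 22.1%. At least 2-fold changes were called for TNFAIP6, CHST11, BGN and HAS3, against 9.06% of all genes. TNFAIP6, counted here and among the 14, passed the filter through the treated libraries, where it was higher. The median log2 fold change was -0.10 over the 25 genes and 0.01 over all genes tested, and the median size of a change regardless of sign was 0.43 against 0.25. Scaling by total counts alone moved the median of all genes to -0.10 and the split of calls from 3294 higher and 3288 lower to 2134 and 4590, but each of the 14 genes kept its call and its direction under that scaling. In these bulk libraries, fewer cells that express a gene and less RNA per cell cannot be told apart.

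**Figure D1:**
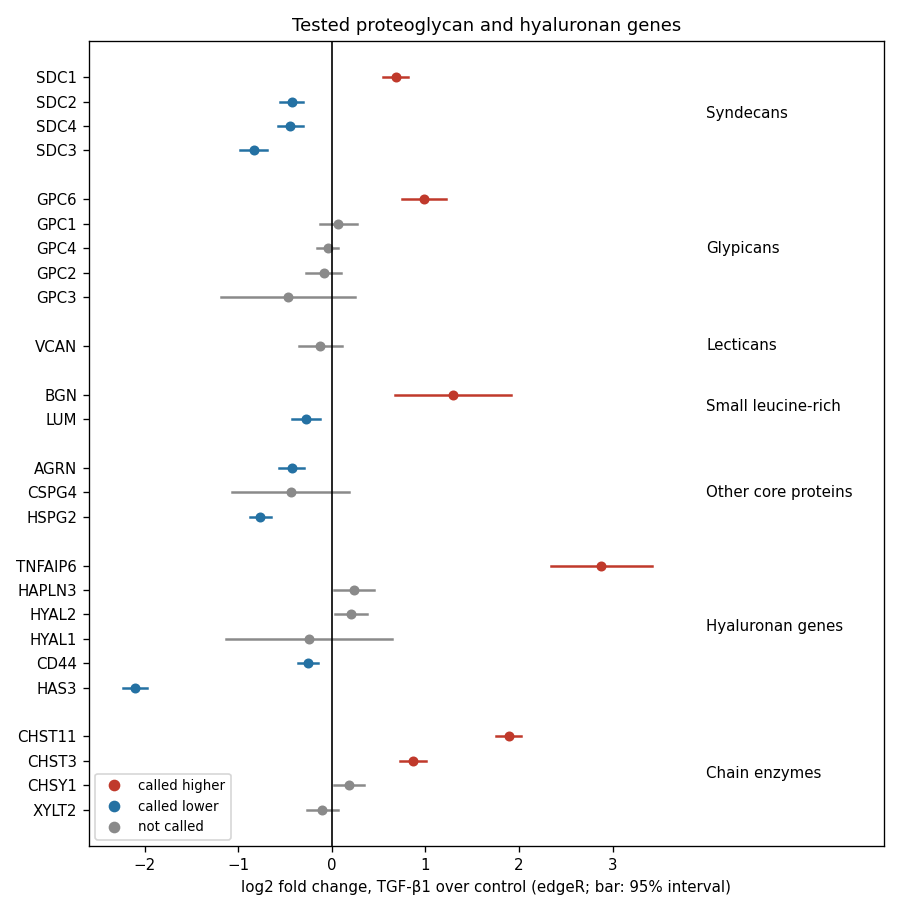
The log2 fold change of TGF-β1 over control is plotted for the 25 tested genes, grouped by class, with bars for the 95% interval from edgeR. The calls ran from HAS3 at -2.10 to TNFAIP6 at 2.88, and both directions occurred within the syndecans, the small leucine-rich proteoglycans and the hyaluronan genes.

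To show the DNA in front of genes that moved in each direction, the 250 bases before the RefSeq start are given for 4 called genes whose RefSeq start equals the start in the deposited tables. These are the largest rise, the largest rise among genes with at least 5 CPM (counts scaled to a common library size by TMM, which centres the typical gene), the one syndecan that rose, and the largest fall among such genes. Sequences are RefSeq on GRCh38.p14, written on the strand of the gene. Capitals mark the letters CAGACA or their reverse complement TGTCTG, an extended form of the short element bound by SMAD proteins. They also mark TGANTCA, with any base at N, a pattern that reads the same on both strands. It includes the AP-1 site but is wider than that site. The windows are chr2:151357342-151357591 on the plus strand for TNFAIP6, chr12:104456698-104456947 on the plus strand for CHST11, chr2:20225476-20225725 on the minus strand for SDC1 and chr1:21937311-21937560 on the minus strand for HSPG2.
TNFAIP6: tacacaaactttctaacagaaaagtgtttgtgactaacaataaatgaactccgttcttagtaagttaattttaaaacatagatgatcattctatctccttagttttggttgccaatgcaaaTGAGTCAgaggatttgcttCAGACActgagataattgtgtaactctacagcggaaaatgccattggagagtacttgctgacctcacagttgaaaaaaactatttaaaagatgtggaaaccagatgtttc
CHST11: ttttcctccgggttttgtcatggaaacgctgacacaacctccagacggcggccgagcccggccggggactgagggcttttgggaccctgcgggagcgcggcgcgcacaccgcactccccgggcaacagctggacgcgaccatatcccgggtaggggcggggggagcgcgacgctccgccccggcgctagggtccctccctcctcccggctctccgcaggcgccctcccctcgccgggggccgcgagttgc
SDC1: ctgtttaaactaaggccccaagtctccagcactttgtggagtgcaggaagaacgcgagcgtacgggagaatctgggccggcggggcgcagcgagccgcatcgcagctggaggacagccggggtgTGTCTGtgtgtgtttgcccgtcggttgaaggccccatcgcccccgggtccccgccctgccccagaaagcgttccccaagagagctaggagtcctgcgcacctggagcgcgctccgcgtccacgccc
HSPG2: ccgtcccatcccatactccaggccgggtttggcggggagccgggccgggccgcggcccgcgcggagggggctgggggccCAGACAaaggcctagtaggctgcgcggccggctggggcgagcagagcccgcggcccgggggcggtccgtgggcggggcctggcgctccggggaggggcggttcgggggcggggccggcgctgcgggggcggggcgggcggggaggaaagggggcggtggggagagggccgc

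The TNFAIP6 window held both motifs, 1 of each, and had a GC content of 34.4%. The SDC1 and HSPG2 windows held 1 CAGACA each on GC contents of 66.4% and 82.8%, so the motif stood in front of a gene that rose and of a gene that fell. The CHST11 window, at 73.2% GC, held neither. RefSeq windows were matched for 32 of the 41 genes. CAGACA was found in 2 of the 6 genes called higher, in 1 of 5 called lower and in 13.6% of all 35116 promoter windows, and TGANTCA in TNFAIP6 alone against 6.57% of all windows. A match is a description of letters and not of binding.

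The syndecans are transmembrane carriers of heparan sulfate on the cell surface that hold growth factors and matrix proteins. All 4 were tested and all 4 were called, 1 higher and 3 lower, where 44.3% of all genes tested were called. SDC1, the syndecan typical of epithelia (gene-SDC1, GRCh38 chromosome 2, 20200797 to 20225475), had 122.6, 121.1 and 108.5 CPM in the control libraries and 195.3, 186.3 and 183.3 CPM after TGF-β1. The groups lay far apart, with every TGF-β1 library above every control library. The log2 fold change of SDC1 was 0.68 ± 0.06 (SE, n = 3 per group), a 1.60-fold rise with an adjusted p of 5.6e-06.

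SDC4, which takes part in focal adhesions (chromosome 20, 45325288 to 45348424), had 793, 781 and 701 CPM in control and 546, 560.5 and 562 CPM after TGF-β1. Its log2 fold change was -0.45 ± 0.06 (SE), with an adjusted p of 1.4e-04, and the groups did not overlap. SDC3, best known from neural tissue (chromosome 1, 30869466 to 30909735), had 128.6, 136.6 and 118.3 CPM in control and 75.4, 70.4 and 68.7 CPM after exposure. This was the largest fall among syndecans in this comparison, at a log2 fold change of -0.84 ± 0.07 (SE) with an adjusted p of 2.2e-06. SDC2, the syndecan abundant in mesenchymal cells, fell from 252, 230.2 and 228 CPM to 180.5, 171.3 and 175.3 CPM, a log2 fold change of -0.43 ± 0.06 (SE) with an adjusted p of 1.1e-04.

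The syndecan mRNA pool also changed in its make-up. SDC4 alone held 71.8% ± 0.450 (SD, n = 3) of the summed syndecan TPM in control and 66.4% ± 1.02 after TGF-β1. SDC1 held 7.85% ± 0.0548 in control and 15.9% ± 0.528 after TGF-β1, and SDC3 5.47% ± 0.226 and 3.85% ± 0.188. The share of SDC2 was 14.9% ± 0.667 and 13.9% ± 0.361, and its groups overlapped. The sum of the 4 genes was 1275 to 1383 TPM in control and 952 to 1004 TPM after exposure. TPM are fixed to the library total, and the median gene tested stood at 0.925 times its control TPM, so the summed ratio of 0.732 includes that shift. On TMM-scaled CPM, summed over the 4 genes, the ratio was 0.800.

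**Figure D2:**
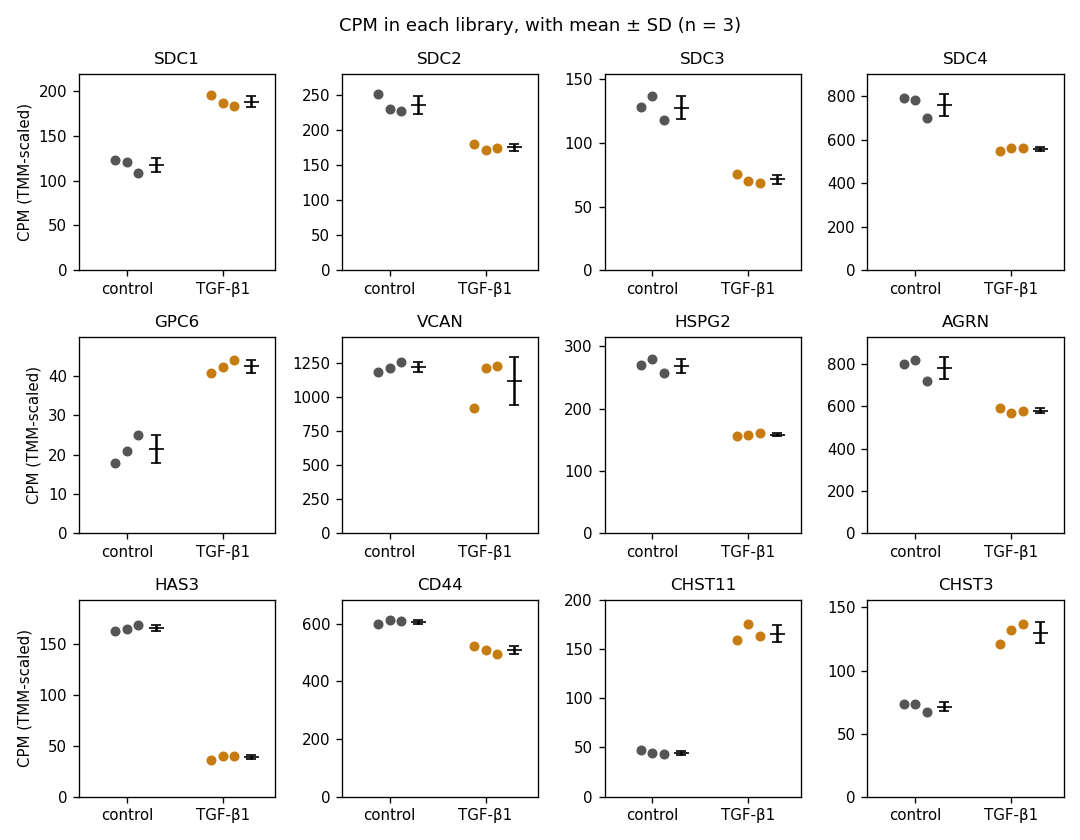
TMM-scaled CPM are plotted for 12 genes in each of the 3 control and 3 TGF-β1 libraries, with the mean and SD beside the points and an axis that starts at 0 in every panel. SDC1, GPC6, CHST11 and CHST3 were higher in every TGF-β1 library, SDC2, SDC3, SDC4, HSPG2, AGRN, HAS3 and CD44 were lower, and VCAN overlapped, with 1214 and 1230 CPM in TGF-β1 replicates 2 and 3 inside the control range and 921 CPM in replicate 1 below it.

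The glypicans carry heparan sulfate on a lipid anchor and act as co-receptors and carriers for Wnt, Hedgehog, BMP and FGF ligands. Of the 6, 5 were tested and 1 was called, or 20.0% against the 44.3% of all genes. GPC6 (gene-GPC6, chromosome 13, 93226807 to 94408020) had 17.9, 21.1 and 25.1 CPM in control and 40.9, 42.4 and 44.1 CPM after TGF-β1. The control libraries differed among themselves by more than the treated ones, yet the groups did not overlap. GPC6 rose 1.98-fold, at a log2 fold change of 0.99 ± 0.11 (SE), with an adjusted p of 3.8e-05.

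The leading glypican of these cells was a different one. GPC4 held 65.5% ± 1.21 (SD, n = 3) of the summed glypican TPM in control and 63.0% ± 1.43 after exposure, while GPC6 held 3.20% ± 0.581 and 6.30% ± 0.246. GPC4 had 123.4 to 126.9 CPM in control and 117.8 to 126.6 CPM after TGF-β1, and its log2 fold change of -0.05 had a 95% interval from -0.16 to 0.07. The interval was -0.13 to 0.27 for GPC1 and -0.27 to 0.10 for GPC2, so a 2-fold change lay outside both. GPC3, which had 14 to 26 reads in control and 12 to 18 after TGF-β1, had an interval from -1.19 to 0.24, and its depth does not settle a 2-fold fall. GPC5 had 4 control reads and 3 reads after exposure. The direction of the summed glypicans depended on the unit, at 0.928 times control in TPM, 1.09 in CPM and 1.01 in CPM per kilobase, so no direction is given.

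The lecticans are large chondroitin sulfate proteoglycans that bind hyaluronan. VCAN, the versican gene (chromosome 5, 83471744 to 83582302), held at least 99.9% of their summed TPM in every library and was the second most abundant of the 41 genes per length in both groups. It had 1188, 1216 and 1261 CPM in control and 921, 1214 and 1230 CPM after TGF-β1. The low value belonged to TGF-β1 replicate 1, and the other 2 treated libraries lay within the control range. The log2 fold change was -0.12 ± 0.10 (SE) with an adjusted p of 0.37, and -0.01 without TGF-β1 replicate 1. The entry VCAN-AS1, which lies opposite to it, had 217 control reads and 156 reads after exposure and was not called. ACAN, BCAN and NCAN, the lecticans of cartilage and brain, had 1 to 10 reads per group. BCAN had 10 control reads and 4 treated reads. BCAN-AS1 on the opposite strand fell from 74 to 15 reads, at a log2 fold change of -2.28 ± 0.45 (SE) with an adjusted p of 0.0020. With so few treated reads, BCAN-AS1 passed the filter through the control libraries, where it was higher. Whether counting used strand was not stated, so reads of overlapping entries on opposite strands cannot be told apart.

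The small leucine-rich proteoglycans bind collagen fibrils, and several of them also bind TGF-β. Only BGN and LUM of the 7 passed the filter, and they were called in opposite directions. BGN, the biglycan gene (chromosome X, 153494980 to 153509546), had 1.11, 1.92 and 1.15 CPM in control and 4.61, 3.14 and 2.53 CPM after TGF-β1, from 25 to 47 reads and 53 to 120 reads per library. All treated libraries lay above the control libraries, with wide spread within each group. The log2 fold change was 1.30 ± 0.28 (SE), with a 95% interval from 0.68 to 1.92 and an adjusted p of 0.0036, and 1.01 without TGF-β1 replicate 1. HAUS7, on the opposite strand, had 970 control reads and 1120 reads after exposure, and its share in the BGN reads was not tested.

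LUM, the lumican gene (chromosome 12, 91102629 to 91111494), was far more abundant, with 58.3, 59.4 and 67.6 CPM in control and 50.7, 50.1 and 52.1 CPM after exposure. Its log2 fold change was -0.28 ± 0.07 (SE), with an adjusted p of 0.0066, and the groups did not overlap. LUM held 96.6% ± 0.919 (SD, n = 3) of the summed TPM of this class in control and 92.4% ± 2.22 after TGF-β1, against 2.49% ± 0.888 and 7.02% ± 2.07 for BGN. The other 5 genes of the class stayed under 12 reads in every library. DCN, the decorin gene, had 9 control reads and 12 reads after exposure, and ASPN had 4 and 6. OGN had 18 and 6 reads, FMOD 22 and 10, and PRELP 9 and 2. In a fit that kept every gene with a read, the adjusted p was 0.10 for OGN, 0.17 for FMOD and 0.19 for PRELP, so none of the 3 was called. The read ratio of OGN was 0.330 with a 95% exact interval from 0.107 to 0.868, which covers counting error only.

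HSPG2 encodes perlecan and AGRN encodes agrin, the heparan sulfate proteoglycans of basement membranes. Both fell. HSPG2 (chromosome 1, 21822244 to 21937310) had 269.1, 280.2 and 258 CPM in control and 155.4, 158.2 and 161 CPM after TGF-β1, a log2 fold change of -0.77 ± 0.05 (SE) with an adjusted p of 7.1e-07. AGRN (chromosome 1, 1020102 to 1056119) had 798.5, 817 and 720.2 CPM in control and 589.7, 568 and 577 CPM after exposure, a log2 fold change of -0.43 ± 0.06 (SE) with an adjusted p of 1.9e-04. The treated libraries were close to each other and below all control libraries for both genes. AGRN held 84.2% ± 0.433 (SD, n = 3) of the summed TPM of this class in control and 87.1% ± 0.375 after TGF-β1. CSPG4, the NG2 proteoglycan of pericytes and progenitor cells, had 13 to 27 reads per library and a log2 fold change of -0.44 with a 95% interval from -1.07 to 0.19. SRGN, the proteoglycan of secretory granules in blood cells, had 5 control reads and 1 read after exposure.

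**Figure D3:**
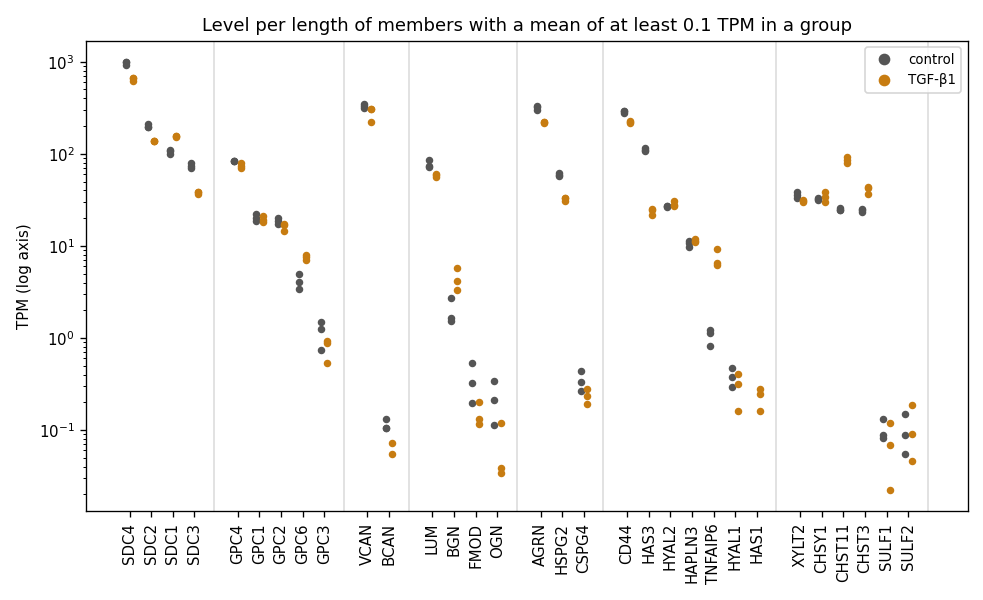
TPM on a log axis are plotted for the 31 of the 41 genes with a mean of at least 0.1 TPM in a group, by class and in the order of their control level, with 1 point per library and libraries at 0 left out. SDC4 led in both groups with 965 TPM in control and 653 TPM after TGF-β1, while HAS3 moved from 111 to 23.8 TPM and CHST11 from 25.1 to 85.9 TPM.

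The genes were not of one abundance. SDC4 led in control with 965 ± 47.9 TPM (SD, n = 3), followed by VCAN with 329 ± 15.9 TPM and AGRN with 319 ± 16.8 TPM, which did not differ beyond their spread. CD44 followed with 287 ± 8.08 TPM, SDC2 with 200.1 ± 8.02 TPM, HAS3 with 111 ± 4.17 TPM and SDC1 with 105 ± 5.22 TPM. The last pair also lay within their spread in control. After TGF-β1 SDC1 stood at place 5 with 156 ± 2.24 TPM and CHST11 at place 7 with 85.9 ± 6.44 TPM, and HAS3 stood at place 16 with 23.8 ± 1.92 TPM. Over all 25 core proteins of the list, the summed level was 2197 to 2305 TPM in control and 1596 to 1752 TPM after exposure, a ratio of 0.750 in TPM and of 0.827 in CPM.

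Hyaluronan is made by 3 synthases, and one of them carried nearly all synthase mRNA in these cells. HAS3 (gene-HAS3, chromosome 16, 69105653 to 69118719) had 162.9, 165.3 and 169.2 CPM in control and 36.2, 39.9 and 39.7 CPM after TGF-β1. The spread within each group was small and the gap wide. HAS3 had a log2 fold change of -2.10 ± 0.06 (SE), a level 4.30-fold lower, with an adjusted p of 9.2e-10. This was the largest fall among the 41 genes and came out between -2.21 and -2.07 in the alternative fits. HAS2, another of the synthases, had 0 reads in all 6 libraries, which allows a level of up to 0.0212 CPM over the pooled libraries. CHTF8 and DERPC, which overlap HAS3 on the opposite strand, were counted at 0 reads. This does not show that they were silent, since the strand setting of the counting was not given.

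No control library held a read of HAS1 (chromosome 19, 51713112 to 51723991), and the TGF-β1 libraries held 3, 4 and 4 reads. Against a floor of 3 reads over the control group, its level was at least 3.63-fold higher with the treated reads taken as exact, and the 95% exact interval of the read ratio, which covers counting error only, starts at 2.49. The exact permutation test gave p = 0.1, the smallest that 3 libraries against 3 allow, and the fit that kept every gene with a read gave an adjusted p of 0.0056. HAS1 entered that fit through its treated reads alone, and it was not called in the reported test, which its counts did not reach. SPACA6, on the opposite strand of HAS1, had 539 control reads and 849 reads after exposure, so these few reads are uncertain. The summed level of the 3 synthases was 107 to 116 TPM in control and 21.8 to 25.4 TPM after exposure.

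TNFAIP6 encodes TSG-6, a secreted protein that binds hyaluronan and moves heavy chains of inter-alpha-inhibitor onto it. TNFAIP6 (chromosome 2, 151357592 to 151380046) was covered by 8, 12 and 12 control reads, or 0.354, 0.491 and 0.511 CPM. The TGF-β1 libraries held 77, 71 and 89 reads, or 2.96, 2.94 and 4.25 CPM. The treated libraries lay well above the control libraries, at a low level in both groups. Its log2 fold change was 2.88 ± 0.24 (SE), a 7.36-fold rise with an adjusted p of 3.9e-06. Control libraries 2 and 3 alone of the 3 reached the filter level of 0.435 CPM, so the gene passed the filter through the treated libraries. Without any 1 library the log2 fold change was 2.68 to 2.97.

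CD44, the main cell surface receptor for hyaluronan (chromosome 11, 35139168 to 35232402), had 599.5, 612 and 611 CPM in control and 522, 510.2 and 494 CPM after TGF-β1. The fall was small and the groups were apart, at a log2 fold change of -0.26 ± 0.05 (SE) with an adjusted p of 0.0019. HYAL2, a hyaluronidase anchored to the membrane, had 21.4 to 21.9 CPM in control and 23.3 to 27.7 CPM after exposure. Its log2 fold change of 0.20 had an adjusted p of 0.053, so it was not called. The value rested on TGF-β1 replicate 1, and without it the log2 fold change was 0.11 with an adjusted p of 0.20. HAPLN3, a link protein that fastens lecticans to hyaluronan, had 9.42 to 11.2 CPM in control and 11.6 to 13.3 CPM after exposure, at a log2 fold change of 0.23 with an adjusted p of 0.074. HYAL1, the lysosomal hyaluronidase, had 5 to 13 reads per library and a 95% interval from -1.13 to 0.64 in log2 fold change, and HAPLN1 had 1 read in all. Of the summed TPM of the hyaluronan genes, HAS3 held 25.4% ± 0.311 (SD, n = 3) in control and 8.15% ± 0.612 after TGF-β1, and CD44 65.6% ± 0.0418 and 75.5% ± 0.611.

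Both calls among the enzymes were rises. CHST11 encodes a chondroitin 4-O-sulfotransferase of the Golgi, and CHST3 encodes a chondroitin 6-O-sulfotransferase. CHST11 (gene-CHST11, chromosome 12, 104456948 to 104762014) had 47.0, 44.2 and 43.0 CPM in control and 159, 175.2 and 163 CPM after TGF-β1. The lowest treated library was more than 3 times the highest control library. CHST11 rose 3.70-fold, at a log2 fold change of 1.89 ± 0.06 (SE), with an adjusted p of 2.8e-09. CHST3 (chromosome 10, 71964395 to 72013562) had 73.7, 73.3 and 66.9 CPM in control and 121.3, 131.8 and 137.2 CPM after exposure, a log2 fold change of 0.87 ± 0.06 (SE) with an adjusted p of 1.4e-06.

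Of the listed enzymes that start and lengthen chains, none was called. XYLT2, which adds the first xylose to the core protein, had 39.9 to 46.6 CPM in control and 39.2 to 43.4 CPM after TGF-β1, with a log2 fold change of -0.10 and a 95% interval from -0.26 to 0.06. Its relative XYLT1 had 0 reads in control and 4 after exposure. CHSY1, a chondroitin synthase, had 51.5 to 56.3 CPM in control and 56.1 to 67.2 CPM after exposure, at a log2 fold change of 0.18 with an adjusted p of 0.064. The value for CHSY1 was 0.11 without TGF-β1 replicate 2 (adjusted p 0.27) and 0.23 without TGF-β1 replicate 1 (adjusted p 0.0060). Its side of the threshold thus depended on the library left out. SULF1 and SULF2, which take 6-O-sulfate groups off heparan sulfate outside the cell, had 14 and 10 reads in control and 11 and 12 after TGF-β1. The summed TPM of the 7 enzymes was 113 to 120.2 in control and 179 to 204 after exposure, and CHST11 held 21.4% ± 0.640 (SD, n = 3) of it in control and 44.8% ± 0.612 after TGF-β1.

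Another 110 genes of the same pathways were taken from lists, and 76 of them were tested. In the TGF-β1 libraries 26 of the 76 were called higher and 21 lower, which is 61.8% against the 44.3% of all genes. By list the share called ran from 40.0% in the linker region to 75.0% among the donors. In the linker region that joins heparan sulfate and chondroitin or dermatan sulfate chains to the core protein, 2 of 5 genes rose and none fell. B4GALT7, which adds the first galactose, had the largest rise there, with a log2 fold change of 0.34 ± 0.07 (SE).

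In chondroitin and dermatan sulfate synthesis, 4 of 11 tested genes rose and 1 fell, a share of 45.5% that was near the 44.3% of all genes. CHSY3, 1 of the 4, passed the filter through the treated libraries, where it was higher. CHST15, which adds a second sulfate group to 4-sulfated chondroitin, rose from 82.9 ± 2.91 to 121.3 ± 1.45 CPM (SD, n = 3), a log2 fold change of 0.55 ± 0.05 (SE). CHST14, the dermatan 4-O-sulfotransferase, fell from 18.7 ± 1.70 to 14.4 ± 1.08 CPM, or by 0.38 ± 0.09 (SE) on the log2 scale. Of the sulfotransferases for the 4-position, CHST11 and CHST14 moved in opposite directions, and CHST12 stood at -0.04.

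In heparan sulfate synthesis, 5 of 13 tested genes rose and 2 fell, a share of 53.8% against the 44.3% of all genes. HS3ST1, 1 of the 2, passed the filter through the control libraries alone, where it was higher. HS3ST3A1, which adds the rare 3-O-sulfate group, rose from 72.5 ± 1.60 to 179.5 ± 4.12 CPM (SD, n = 3), a log2 fold change of 1.31 ± 0.05 (SE). GLCE, the epimerase that turns glucuronic into iduronic acid, fell from 45.0 ± 2.06 to 34.7 ± 2.53 CPM, at -0.38 ± 0.07 (SE) in log2 fold change. HS3ST3A1 and HS3ST3B1 are close paralogs, so how their reads were divided is uncertain.

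Among the enzymes and transporters that supply sugar and sulfate donors, 9 of 16 rose and 3 fell. Of all genes tested, 22.2% were called higher and 22.1% lower. GFPT2, an isoform of the enzyme that opens the hexosamine pathway, had a log2 fold change of 0.87 ± 0.06 (SE), and UXS1, which makes the xylose donor, had -0.65 ± 0.06 (SE). Of 17 tested genes of chain breakdown, 3 rose and 9 fell, against the same shares of all genes. CEMIP, which takes part in the breakdown of hyaluronan, fell from 65.2 ± 3.25 to 20.7 ± 1.90 CPM (SD, n = 3), a log2 fold change of -1.66 ± 0.08 (SE), and ARSB, the lysosomal 4-sulfatase of chondroitin and dermatan sulfate, rose by 0.28 ± 0.06 (SE) on the log2 scale.

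Of 5 tested genes for hyaluronan binding and receptors, 3 fell and none rose, a share of 60.0% against the 44.3% of all genes. STAB2, among the 5 tested, reached the filter level in 3 control libraries and 1 treated library, so it passed through the control libraries. PTX3, a pentraxin that binds the product of TNFAIP6, fell from 17.0 to 19.2 CPM in control to 2.27 to 2.50 CPM after exposure, at a log2 fold change of -2.88 ± 0.10 (SE), in the direction opposite to TNFAIP6. Of 9 tested genes for other core and link proteins, 3 rose and 3 fell, a share of 66.7% against the 44.3% of all genes. SPOCK1, the testican gene, rose from 308 ± 3.60 to 588 ± 15.7 CPM, or by 0.93 ± 0.05 (SE) on the log2 scale, and NRP1, a receptor that can carry a chain, had -0.39 ± 0.05 (SE).

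Changes of at least 2-fold were called for 9 of these 76 genes, or 11.8% against 9.06% of all genes. Besides HS3ST3A1, CEMIP and PTX3 they were CHSY3, HS3ST3B1, HS3ST1, HPSE, NYX and COL15A1, which are named here with their values known. CHSY3, a chondroitin synthase, stood at a log2 fold change of 1.71, HS3ST3B1 at 1.13 and COL15A1, a collagen with chondroitin sulfate chains, at 2.04. HPSE, the heparanase that cuts heparan sulfate, stood at -1.27 and NYX at -1.42. HS3ST1 had 51 control reads and 2 reads after exposure and passed the filter through the control libraries alone. CHSY3, with 31 and 103 reads, reached the filter level in 2 control libraries and all 3 treated ones.

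**Figure D4:**
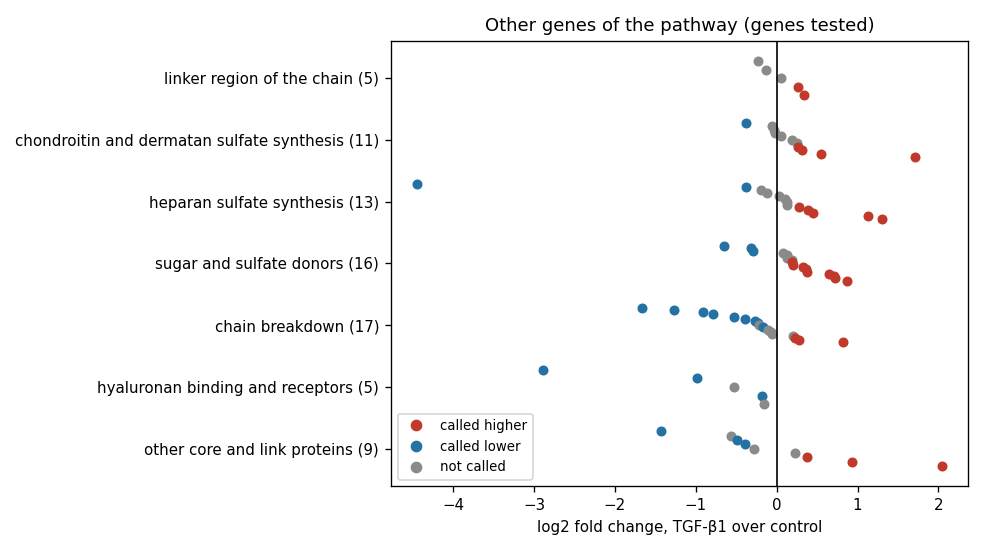
The log2 fold change of TGF-β1 over control is plotted for the 76 tested genes of the 7 other pathway lists, with 1 point per gene and the number of tested genes in brackets. Rises outnumbered falls among the 16 donor genes (9 against 3), and falls outnumbered rises among the 17 of chain breakdown (9 against 3). Over all genes tested, 22.2% were called higher and 22.1% lower. The lowest point, HS3ST1 at -4.45, rests on 2 treated reads, while the highest is COL15A1 at 2.04.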

How the data were processed

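RNA was measured in 3 control and 3 TGF-β1 libraries of HK-2 cells. Poly(A) RNA was captured on oligo(dT) beads and reverse transcribed with random hexamers. The submitters' processing notes name CASAVA, featureCounts 2.0.1, DESeq2 1.16.1 and the build hg38, and the aligner, the annotation release and the strand setting are not given in the sources used here. The deposited tables hold raw counts per gene and the authors' TPM and FPKM, which the counts and listed lengths gave again within 3.57e-06. Each table lists 42095 entries, 598 without a gene name (0.396% to 0.464% of counts, left out of library sizes and tests), and 7 broken records were rejoined. XYLT1 alone has an entry on an alternate contig, at 0 reads. FPKM were not used further.

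Low counts were removed with filterByExpr (minimum count 10) in edgeR 4.0.16. Counts were scaled with TMM and compared with its two-sided quasi-likelihood F test, with Benjamini-Hochberg adjustment over 14860 genes. CPM use TMM-scaled library sizes. Intervals of fold changes are 95% intervals of that fit. The test was checked on simulated data. Genes under the filter were described by reads, with the exact permutation test. Alternatives used R 4.3.3, DESeq2 1.42.0 and limma 3.58.1 (voom). Python 3.11.15 with pandas 2.3.3 and scipy 1.17.1 did the rest. The genes and the other lists were chosen with earlier results of these data known. All 41 genes are named. Of each other list, the largest called rise and fall with a mean of at least 5 CPM are named, and exceptions are marked in the text. Some marker and check genes are not reported here. Deviations of libraries with the same replicate number had correlations of 0.111, -0.012 and 0.076. These do not show a pairing, so the numbers were not used to pair libraries.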

Additional observations from a re-analysis of the deposited data

How the results depend on the processing

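The alternatives were limma-voom, DESeq2, size factors of the RLE type, total counts with no TMM, a fit with every gene that had a read, a stricter filter at a mean of 50 counts, primary chromosomes only, entries of a name summed, a replicate block, and leaving out each of the 6 libraries in turn. Each of the 14 calls kept its direction and its side of the threshold in every fit that tested the gene, and TNFAIP6 was under the stricter filter. With every gene that had a read, 9 of the genes were called higher. HAS1 was among them and entered that fit through its treated reads alone. Under total counts 10 of the genes were called lower. Without 1 library, 6 to 7 of the genes were called higher and 8 were called lower. Over all genes the calls ranged from 5333 to 7196, and over the other pathway genes from 41 to 54, also across fits without 1 library. The direction of GPC1, not called, was reversed under total counts (-0.038), and its fits with 1 library left out gave -0.023 (TGF-β1 replicate 1 out) to 0.14, with -0.0009 when control replicate 3 was out. HYAL1, also not called, gave -0.51 to 0.048 in these fits, the last with TGF-β1 replicate 2 out. Genes that passed the threshold under an alternative and not in the reported test were GPC4 (-0.15) and XYLT2 (-0.21) under total counts, HYAL2 with every gene that had a read (0.21), with entries of a name summed (0.20) and without TGF-β1 replicate 3 (0.24), and CHSY1 with every gene that had a read (0.19) and without TGF-β1 replicate 1 (0.23). Other fits gave these 2 genes lower values, namely 0.095 for HYAL2 and 0.075 for CHSY1 under total counts, 0.11 for HYAL2 without TGF-β1 replicate 1 and 0.11 for CHSY1 without TGF-β1 replicate 2. The sum of CPM per kilobase for the classes was chosen after seeing the data. By TPM, CPM and CPM per kilobase, the ratio was 0.732, 0.800 and 0.794 for syndecans, 0.662, 0.703 and 0.719 for other core proteins, 0.670, 0.730 and 0.728 for hyaluronan genes, and 1.63, 1.86 and 1.76 for enzymes.

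With the replicate number as a block, 6 of the genes were called higher, 8 lower and 6790 over all genes. The deviations of libraries with the same number had correlations of 0.111, -0.012 and 0.076 across genes, so the pairing of the numbers is not shown and the block is given here only. Depth limits the 16 genes under the filter, which had at most 32 reads over the 6 libraries.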
